A study of Homo sapiens with 12 samples.

Results

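The genes described here are the MMP, ADAM and ADAMTS metalloproteinases, zinc-dependent proteases that cut matrix proteins and proteins of the cell surface. Members were all probes whose platform gene symbol was MMP, ADAM or ADAMTS followed by digits and at most 1 letter, which gave 64 of the 20046 genes with a symbol (24 MMP, 22 ADAM and 18 ADAMTS), on 105 of the 47323 probes. Of these, 16 genes were detected by 20 probes, 7 more were seen on a few arrays, and 41 were detected on no array. One member was called higher in cells with a hairpin against TIMP1 than in vector control cells. ADAMTS9, a secreted protease that cuts the proteoglycans versican and aggrecan, was 1.69-fold higher on its single probe (95% confidence interval 1.46 to 1.95, n = 6 per group). The call held under 17 of 23 alternatives in processing or in the arrays used, which were not all distinct. TIMP1 itself had a log2 fold change of -0.19 and did not pass (limma adjusted p = 0.101). None of the other 19 detected member probes passed the test.

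Matrix metalloproteinases (MMPs) are made as inactive precursors; most are secreted and some are held at the membrane. ADAMs are membrane proteins with a disintegrin domain, and those with an intact zinc-binding site shed growth factors, cytokines and receptors from the cell surface, while others lack the site and act in adhesion. ADAMTS proteins are secreted, carry thrombospondin repeats and process proteoglycans and procollagens. TIMP1 inhibits most secreted MMPs and also ADAM10; TIMP3 has the broader reach among the ADAM and ADAMTS enzymes.

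The study measured total RNA of PANC-1, an established cell line from a human pancreatic ductal carcinoma, on Illumina bead arrays. In 6 samples the cells carried an integrated pLKO.1 vector with a short hairpin RNA against human TIMP1 (knockdown), and in 6 they carried the pLKO.1 puro vector without it (control, which the titles call WildType). All were grown in DMEM with serum and puromycin. The labels do not say whether a line was a clone or a pool, nor whether replicates 1 to 6 of a group were separate cultures, so each p-value refers to the variation among these 12 arrays, part or all of which may be technical.

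TIMP1 itself, on 1 probe, had a lowest, median and highest normalised log2 intensity of 13.49, 13.56 and 13.63 in the knockdown and 13.64, 13.75 and 13.86 in the control. Every knockdown array lay below every control array, but the difference was small, with a log2 fold change of -0.19 and a limma adjusted p of 0.101. Of 7 ductal and epithelial markers 6 were detected (KRT7, KRT8, KRT18, KRT19, EPCAM and SOX9) and CDH1 was not. Detected markers of other cell types numbered 0 of 5 for fibroblast and stellate cells, 3 of 5 for leukocytes (AIF1, CD14 and CD68), 1 of 4 for endothelium (PECAM1) and 2 of 5 for acinar and islet cells (PRSS1 and CELA3A). None of these markers passed the test. The summed signal of the acinar and islet markers was 3377 to 3938 in the knockdown and 3889 to 4341 in the control, and its part in the results was not tested. A probe counted as detected on an array when its deposited detection p was under 0.05. The knockdown arrays had more detected probes, 15898 to 17680, against 15681 to 16565 on the control arrays, and knockdown 2 and knockdown 6 had the most.

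Which metalloproteinases PANC-1 cells express at a level these probes could see was asked first. At least 1 array detected 30 of the 105 member probes, for 23 genes, and 75 probes were detected on none. A probe entered the test when it was detected on at least 6 of the 12 arrays. By that rule 25% of member genes were kept, against 48.8% of all genes with 1 symbol. The share was highest among ADAMs known to carry the zinc-binding motif (7 of 12 genes). It was 2 of 10 among the other ADAMs, 2 of 16 among secreted MMPs, 1 of 8 among membrane-bound MMPs and 4 of 18 among ADAMTS genes. In that order these classes had 24, 20, 23, 13 and 25 probes, and the part of probe number in the shares was not tested. Members were taken by symbol alone, and whether each codes for an active protease was not checked. Members that do not, if any, would still count in these shares. On the knockdown arrays 21 to 23 member probes were detected (median 21.5), and on the control arrays 16 to 21 (median 19.5). The groups overlapped at 21. The count over all probes was also higher in the knockdown as a group, but the 2 counts did not go together on every array. Knockdown 1 had 21 member probes and 15898 over all, where control 4 had 18 and 16459. The part of the count over all probes in the member count was not tested.

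**Figure D1:**
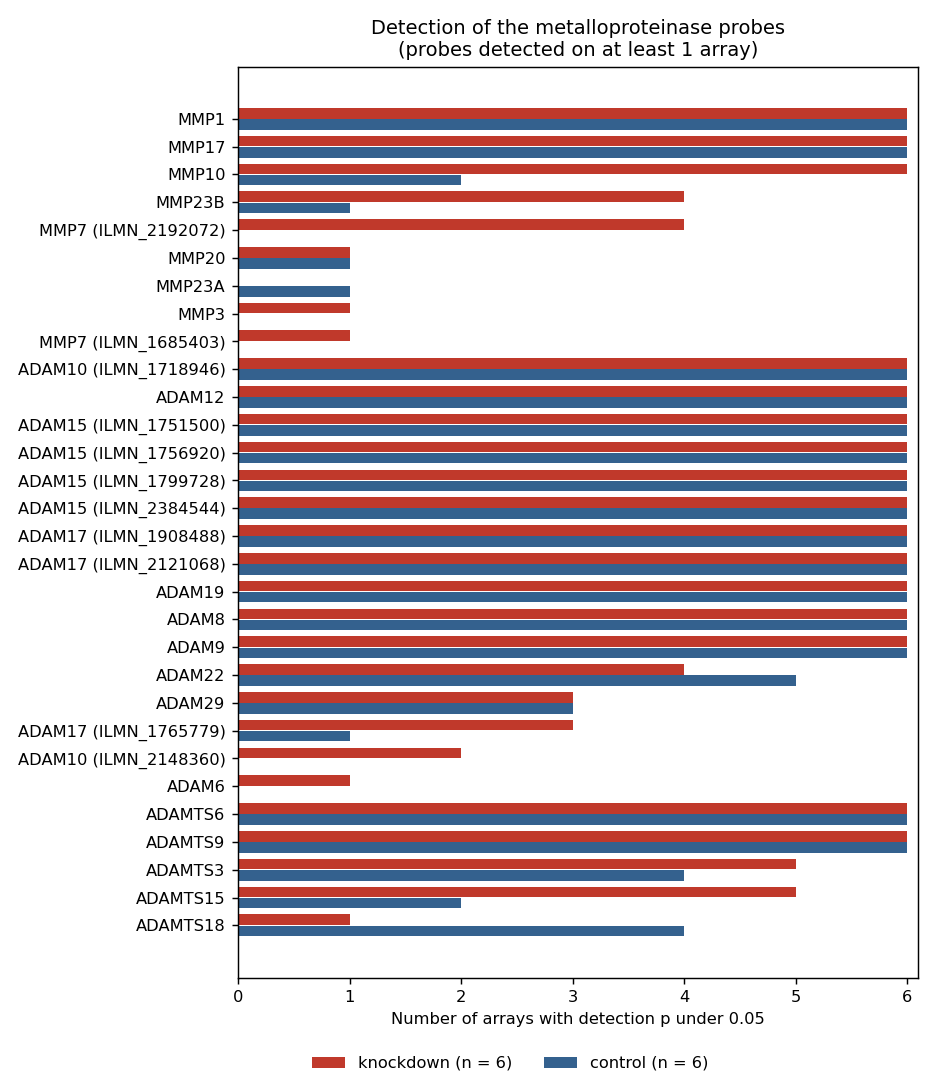
Horizontal bars give the number of arrays, of 6 knockdown (upper, red) and 6 control (lower, blue), on which each of the 30 member probes detected at least once had a detection p under 0.05. MMP1, MMP17, ADAMTS6, ADAMTS9 and 11 ADAM probes were detected on all 12 arrays. MMP10, MMP7, MMP23B and ADAMTS15 were among those detected on more knockdown than control arrays, and ADAMTS18, ADAM22 and MMP23A were detected on fewer. Over all probes detected on 1 to 5 arrays, 68.3% were seen on more knockdown arrays and 20.1% on fewer.

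Several metalloproteinases much studied in tumours were not detected. The gelatinases MMP2 and MMP9, which cut denatured collagen and basement membrane collagen, and the membrane-bound collagenase MMP14, an activator of MMP2, each had 1 probe and were below the threshold on all 12 arrays. The signal of MMP14 lay between 145 and 185 on the knockdown arrays and between 137 and 171 on the control arrays, with no detection p below 0.284. The probe of MMP9 had 122 to 148 in the knockdown and 122 to 140 in the control, and that of MMP2 had 138 to 154 and 132 to 149. The collagenase MMP13 had a lowest detection p of 0.0571. MMP11, MMP12, MMP15, MMP16, MMP19, MMP24, MMP25 and MMP28 were also detected on no array, as were the aggrecanases ADAMTS4 and ADAMTS5, the procollagen proteinases ADAMTS2 and ADAMTS14, and ADAMTS1, ADAMTS12 and ADAMTS13. So were MMP8, MMP21, MMP26 and MMP27, ADAMTS8, ADAMTS10, ADAMTS16, ADAMTS17, ADAMTS19 and ADAMTS20, and ADAM2, ADAM3A, ADAM5, ADAM11, ADAM18, ADAM20, ADAM21, ADAM23, ADAM28, ADAM30, ADAM32 and ADAM33. A probe under the threshold shows only that this probe did not rise above the array's negative controls.

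ADAMTS9 was the 1 member called. Its normalised log2 intensity had a lowest, median and highest value of 8.06, 8.35 and 8.61 on the knockdown arrays and 7.45, 7.59 and 7.80 on the control arrays. The groups did not overlap, and the gap between the lowest knockdown array (knockdown 1) and the highest control array (control 6) was wider than the standard deviation in either group (0.22 in the knockdown and 0.11 in the control). In deposited signal, before normalisation, the arrays read 449, 549, 503, 471, 453 and 501 for knockdown 1 to 6, and 370, 335, 355, 346, 358 and 380 for control 1 to 6. The probe was detected on all 12 arrays, with detection p of 0 to 0.0104 in the knockdown and 0.0104 to 0.0208 in the control, so it was dim in both groups. The log2 fold change was 0.76 with a standard error of 0.10 on 6 arrays per group. It passed at a limma adjusted p of 0.0169, and its unadjusted p of 3.66e-06 ranked 2 among the 16495 probes tested. The exact two-sided permutation p was 0.00216, the smallest that 6 arrays against 6 can give. In bulk RNA of a culture, more cells that express the gene and more RNA per cell cannot be told apart.

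The size of the ADAMTS9 difference depended on how background was handled. Without background correction the log2 fold change was 0.47 (limma adjusted p = 0.00964). The authors' processed values are also a quantile normalisation of the raw signal, so their value, again 0.47, was no separate check. Both are counted among the alternatives. The log2 fold change stayed above 0 under all 23 alternatives that could test it, between 0.47 and 0.83, and passed the threshold under 17 of them. The call was lost without knockdown 4 (limma adjusted p = 0.0504), without control 1 (0.0525), without control 3 (0.0555) and without control 4 (0.0501), with log2 fold changes of 0.73 to 0.78. Knockdown 2 and knockdown 6 had the highest ADAMTS9 values, at 8.61 and 8.58. They also had the lowest array weights, which fall as an array departs more from its group, at 0.485 and 0.493. The other arrays had 0.848 to 1.374. Without these 2 arrays the log2 fold change was 0.64 (adjusted p = 0.0506), and in a fit that included each array's count of detected probes it was 0.63 (adjusted p = 0.366). In that covariate fit limma called 0 of the 16495 probes. The adjusted p over all alternatives lay between 0.00388 and 0.366.

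**Figure D2:**
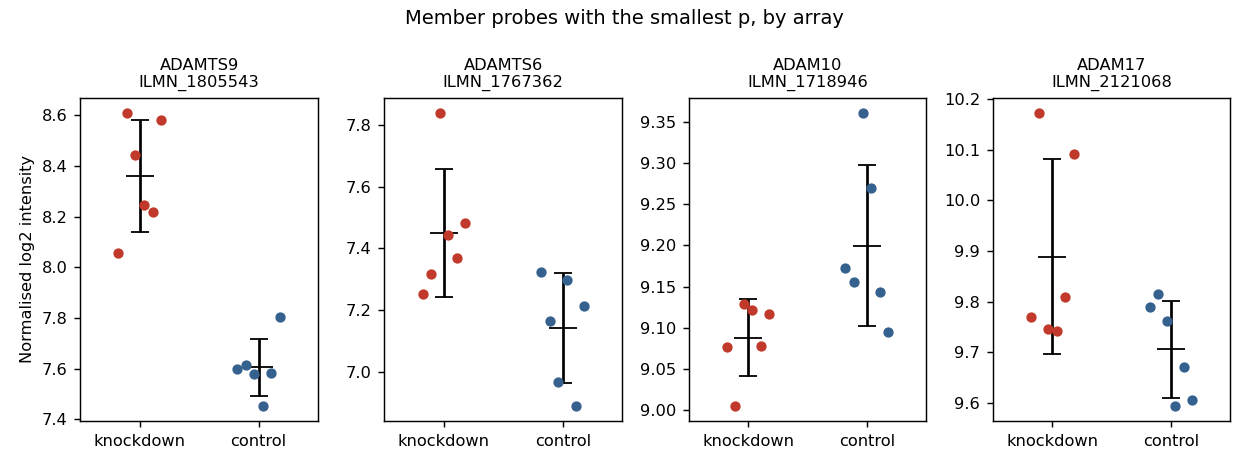
Points are single arrays on the normalised log2 scale for the 4 detected member probes with the smallest p, knockdown left (red) and control right (blue), with the mean and SD in black; each panel has its own axis range. The 6 ADAMTS9 values of the knockdown, 8.06 to 8.61, lie above the control range of 7.45 to 7.80, while the groups overlap for ADAMTS6, ADAM10 and ADAM17.

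Over all detected probes 0.303% passed the same limma test (50 of 16495), with 0.255% of all probes higher and 0.0485% lower, against 1 higher and 0 lower of the 20 member probes. That 1 call is a single gene and not a count over the family. The groups did not overlap for 1 member probe, ADAMTS9, where 1.56% of all probes did not overlap and 1.02% did so with the knockdown higher. At an unadjusted p under 0.05 there were 4 member probes, 3 higher and 1 lower, against 14.5% of all probes tested (8.81% higher and 5.67% lower). The member probes were evenly divided, with 10 above 0 and 10 below, and their median log2 fold change of 0.01 equalled the median over all detected probes, also 0.01. When arrays were scaled by their medians, 16 lay above 0 and 4 below, with a median of 0.10, or -0.02 relative to all probes. Outside ADAMTS9 the log2 fold changes lay between -0.26 and 0.31.

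**Figure D3:**
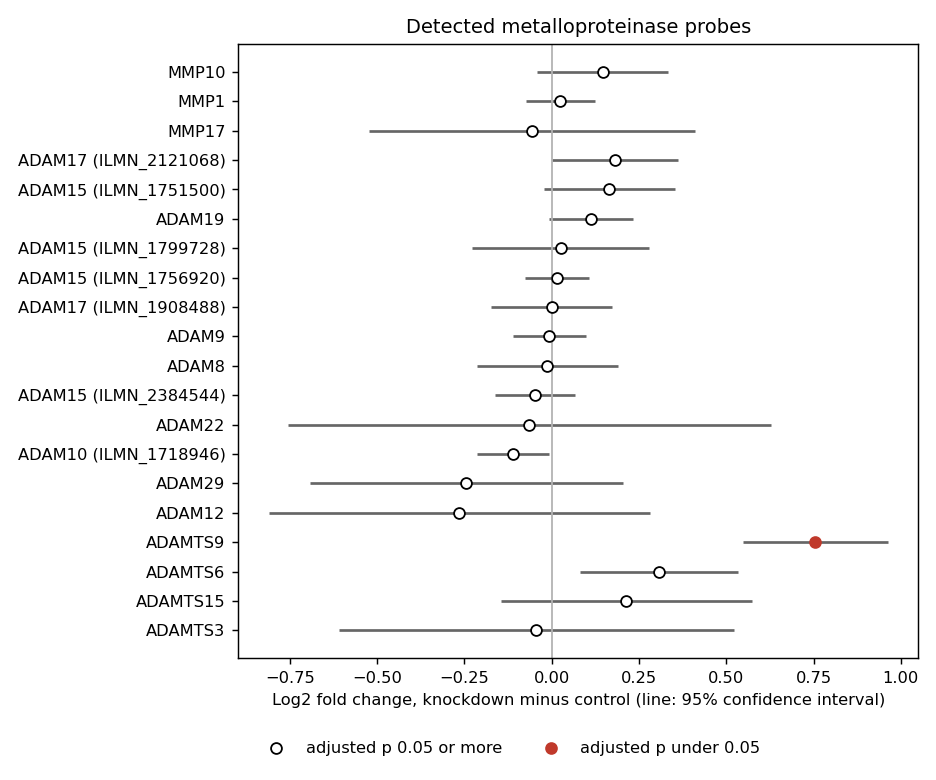
Points are log2 fold changes, knockdown minus control, of the 20 detected member probes with 95% confidence intervals from limma, grouped as MMP, ADAM and ADAMTS; the filled point has an adjusted p under 0.05. ADAMTS9 at 0.76 is the 1 filled point, and the widest intervals are those of ADAM22, ADAMTS3 and ADAM12.

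Among the other ADAMTS genes, ADAMTS6, a secreted member of the family, came next by p. Its lowest, median and highest log2 intensities were 7.25, 7.41 and 7.84 in the knockdown and 6.89, 7.19 and 7.32 in the control. The groups overlapped, and the log2 fold change of 0.31 ± 0.10 (SE) did not pass over all probes (limma adjusted p = 0.226; exact permutation p = 0.0108). Knockdown 3 was the highest array, and without it the log2 fold change was 0.23. It was 0.16 without background correction. ADAMTS15, which cuts proteoglycans as ADAMTS9 does, was detected on 5 knockdown and 2 control arrays and had 0.21 ± 0.17 (SE), with knockdown 4 highest at 7.46. Without knockdown 4 it had 0.08. ADAMTS3, which removes the amino-terminal propeptide of procollagen and takes part in the processing of VEGF-C, was detected on 5 knockdown and 4 control arrays and had -0.04 ± 0.26 (SE). Its arrays spread widely, with an SD of 0.46 in the knockdown and 0.53 in the control (n = 6 each), and the log2 fold change was -0.17 without control 2 and 0.13 without knockdown 6. ADAMTS18 was seen on 1 knockdown array and 4 control arrays by 1 of its 2 probes, too few to enter the test.

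The surface sheddases ADAM10 and ADAM17 were detected on all 12 arrays. ADAM10 cuts the amyloid precursor protein, Notch receptors and cadherins. Its main probe read 9.01, 9.10 and 9.13 (lowest, median and highest log2 intensity) in the knockdown and 9.10, 9.16 and 9.36 in the control. The ranges overlapped, and the log2 fold change of -0.11 (95% confidence interval -0.21 to -0.01) did not pass over all probes (limma adjusted p = 0.313). Where arrays were scaled by their medians in place of quantiles, the log2 fold change over all detected probes had a median of 0.12, and ADAM10 had 0.01, or -0.10 relative to it. Its other probe was detected on 2 knockdown arrays and on 0 control arrays. ADAM17 releases tumour necrosis factor and ligands of the EGF receptor. On its brighter probe it read 9.74, 9.79 and 10.17 in the knockdown and 9.59, 9.72 and 9.82 in the control. Knockdown 2 and knockdown 6, at 10.17 and 10.09, were the 2 arrays above the control range. The log2 fold change was 0.18 (limma adjusted p = 0.343), and without those 2 arrays it was 0.06. The second detected ADAM17 probe had 0.00, with a 95% confidence interval of -0.17 to 0.17. The third was seen on 3 knockdown arrays and 1 control array.

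Knockdown 2 and knockdown 6 were the 2 highest of the 12 arrays for 3 of the 20 member probes (ADAM17, ADAMTS9 and 1 probe of ADAM15) and the 2 lowest for 1 (ADAM12), or 15% and 5%, against 11.6% and 7.14% of all detected probes.

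ADAM15, which carries an integrin-binding motif and is made in many splice forms, was the member with the most detected probes, 4, all on 12 arrays. Their log2 fold changes were 0.02, -0.05, 0.03 and 0.16, from the brightest probe to the dimmest, and none passed. On the brightest probe the mean was 12.14 ± 0.09 in the knockdown and 12.13 ± 0.03 in the control (SD, n = 6 each). The 95% confidence interval in this fit was -0.08 to 0.11. Under the alternatives the log2 fold change of that probe lay between -0.018 and 0.145. ADAM9, a widely made sheddase, was similarly close, with a mean of 8.93 ± 0.05 in the knockdown, 8.94 ± 0.10 in the control (SD, n = 6 each) and an interval of -0.11 to 0.10. ADAM19, which takes part in shedding of neuregulins, read 7.83 to 8.02 in the knockdown and 7.67 to 7.93 in the control, with a log2 fold change of 0.11 (limma adjusted p = 0.38); its other probe was detected on no array. ADAM8, best known from leukocytes, had -0.01, with a wider spread in the knockdown (SD 0.22) than in the control (SD 0.09, n = 6 each). ADAM12, a sheddase made in several carcinomas, ranged from 7.17 to 8.67 in the knockdown and from 8.07 to 8.98 in the control on 1 of its 3 probes, the others being detected on no array. Its log2 fold change of -0.26 ± 0.25 (SE) was -0.06 without knockdown 6, the lowest array.

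Of the ADAMs without the zinc-binding motif, ADAM22 and ADAM29 were kept. ADAM22, known as a neuronal receptor of the secreted LGI1, was detected on 4 knockdown and 5 control arrays and had -0.06 ± 0.32 (SE), the least precise of the member values. Its other 2 probes were detected on no array. ADAM29, known from testis, was detected on 3 arrays of each group and had -0.24 ± 0.21 (SE). The 95% confidence intervals were -0.76 to 0.63 for ADAM22 and -0.69 to 0.20 for ADAM29, too wide to bound a change closely. ADAM6 was seen on 1 knockdown array only.

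Among the MMPs, MMP1, the interstitial collagenase, was detected on all 12 arrays with a detection p of 0 on each. Its log2 intensity had a lowest, median and highest value of 12.16, 12.21 and 12.31 in the knockdown and 12.10, 12.21 and 12.30 in the control. The groups covered nearly the same range, with a log2 fold change of 0.03 and a 95% confidence interval of -0.07 to 0.12, which on the linear scale is 0.95 to 1.09-fold. MMP17, a membrane-bound enzyme held by a lipid anchor, was detected on all 12 arrays with a wider spread, from 7.11 to 8.18 in the knockdown and from 7.11 to 8.19 in the control. Its log2 fold change was -0.06 ± 0.22 (SE), and the interval reached from -0.52 to 0.41. This was 1 of 3 MMP17 probes, and the others were detected on no array.

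MMP10 and MMP7 lay at the edge of detection. MMP10, or stromelysin-2, cuts proteoglycans and fibronectin. It was detected on 6 knockdown and 2 control arrays, and it was kept because of the knockdown arrays. Its signal was 232 to 302 in the knockdown and 246 to 268 in the control. The detection p ran from 0.0221 to 0.0481 in the knockdown and from 0.0364 to 0.0623 in the control, so that small shifts decided the counts. The log2 fold change was 0.15 (limma adjusted p = 0.45), and without knockdown 5, which read 7.16 where the others read at most 6.74, it was 0.07. MMP7, or matrilysin, an epithelial MMP without a hemopexin domain, was detected by 1 of its probes on 4 knockdown arrays and on 0 control arrays, with 232 to 267 in the knockdown and 200 to 239 in the control. The groups overlapped, and no fold change is given because the mean of the knockdown was below the lowest level that counted as detected on the control arrays. The second MMP7 probe was seen on 1 knockdown array.

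**Figure D4:**
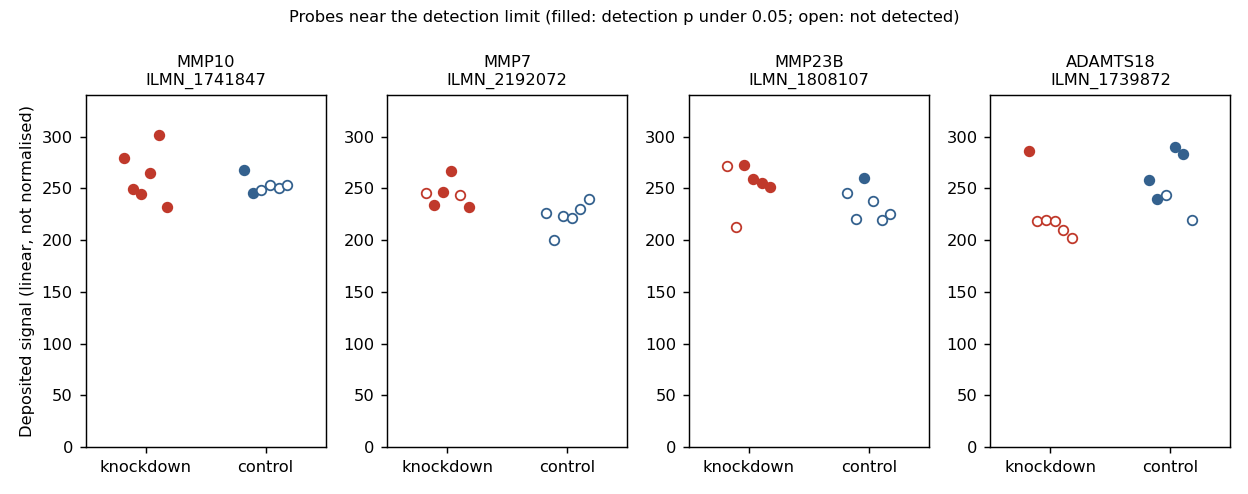
Deposited linear signal by array for probes of MMP10, MMP7, MMP23B and ADAMTS18, knockdown left (red) and control right (blue); filled points had a detection p under 0.05 and open points did not. Filled and open points lie at similar signals, as for MMP7, with 232 to 267 in the knockdown and 200 to 239 in the control.

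In all, 10 member probes were seen on 1 to 5 arrays and left out of the test. Of these, 7 were detected on more knockdown than control arrays, 2 on fewer and 1 on as many. Over all 3390 probes detected that rarely, 68.3% were seen on more knockdown than control arrays and 20.1% on fewer, so such probes as a whole leaned the same way. Besides those named, they were MMP23B, a membrane MMP (4 knockdown arrays, 1 control array), MMP23A (0 and 1), MMP20, an enamel protease (1 and 1), and MMP3, or stromelysin-1 (1 and 0). MMP23A and MMP23B are near-identical copies, and their probes may not tell them apart.

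The promoters of MMP10, MMP7 and MMP23B, the MMPs detected on 4 or more knockdown arrays but not on all 12, are shown beside those of the sheddases ADAM17 and ADAM10, which were detected on every array. MMP10, MMP7 and both ADAM promoters were chosen with their motifs known, and no difference between the families was tested. The 250 bases before the annotated start are from RefSeq, build GRCh38.p14, on the plus strand of the genome for MMP23B and the minus strand for the others: MMP10 at chr11:102780629-102780878, MMP7 at chr11:102530748-102530997, MMP23B at chr1:1631923-1632172, ADAM17 at chr2:9555831-9556080 and ADAM10 at chr15:58749708-58749957. They are written 5′ to 3′ along the gene. Capitals mark TGANTCA (the AP-1 motif), TATAAA (the TATA box) and GGGCGG (the GC box), each searched on both strands. In these promoters no matches overlapped.
MMP10: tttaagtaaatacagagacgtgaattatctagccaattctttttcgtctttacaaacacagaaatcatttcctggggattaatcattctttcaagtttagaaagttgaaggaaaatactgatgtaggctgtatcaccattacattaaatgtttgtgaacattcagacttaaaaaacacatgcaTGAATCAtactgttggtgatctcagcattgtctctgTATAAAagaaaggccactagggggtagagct
MMP7: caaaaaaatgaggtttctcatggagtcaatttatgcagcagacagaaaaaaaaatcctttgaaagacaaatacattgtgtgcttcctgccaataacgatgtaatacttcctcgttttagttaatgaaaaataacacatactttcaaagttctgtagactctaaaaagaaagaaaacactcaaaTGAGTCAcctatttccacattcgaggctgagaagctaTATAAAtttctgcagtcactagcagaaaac
MMP23B: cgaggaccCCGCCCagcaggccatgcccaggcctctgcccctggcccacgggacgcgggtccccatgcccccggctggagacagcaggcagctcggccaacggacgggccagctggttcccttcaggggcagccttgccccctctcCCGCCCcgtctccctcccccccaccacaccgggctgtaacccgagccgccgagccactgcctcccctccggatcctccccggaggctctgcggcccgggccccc
ADAM17: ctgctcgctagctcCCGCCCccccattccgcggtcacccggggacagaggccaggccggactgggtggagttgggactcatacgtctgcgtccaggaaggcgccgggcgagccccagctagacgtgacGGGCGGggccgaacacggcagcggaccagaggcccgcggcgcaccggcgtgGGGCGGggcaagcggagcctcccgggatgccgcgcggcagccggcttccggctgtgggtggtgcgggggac
ADAM10: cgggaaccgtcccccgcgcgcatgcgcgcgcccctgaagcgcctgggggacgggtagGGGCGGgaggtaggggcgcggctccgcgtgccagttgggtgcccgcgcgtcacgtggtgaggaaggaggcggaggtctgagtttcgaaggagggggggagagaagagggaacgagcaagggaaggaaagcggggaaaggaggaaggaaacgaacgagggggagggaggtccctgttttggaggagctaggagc

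The promoters of MMP10 and MMP7 hold an AP-1 motif that starts 67 bases before the start site, and a TATA box 31 bases before it in MMP10 and 30 in MMP7. They are 2 of the 3 MMP promoters, of 12, with both motifs, against 1.07% of all promoters in the table. MMP23B holds 2 GC boxes, ADAM17 holds 3 and ADAM10 holds 1, with neither other motif. The table had promoters for 35 of the 64 member genes, and none for ADAMTS9 or MMP1. An AP-1 motif was found in 3 of 12 MMP, 0 of 12 ADAM and 1 of 11 ADAMTS promoters, against 6.57% of all 35116 promoters in the table. The TATA box was found in 6, 0 and 1 of them, against 10.7% of all, and the GC box in 5, 7 and 10, against 42.6%. A match describes these letters and shows no binding.

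The other genes of the pathway were read in the same fit, in 6 lists of inhibitors, activators, substrates, relatives and transcription factors. Of 86 genes 52 were detected, and limma called 0 of them, with 10 (19.2%) at an unadjusted p under 0.05 where 14.5% of all probes had one. Among the inhibitors 4 of 6 were detected, with TIMP3 at 0.18 ± 0.06 (SE; adjusted p = 0.24), TIMP2 at 0.09 and a list median of 0.05. RECK, a membrane-anchored inhibitor of MMPs, and the protease trap A2M were not detected. Of 17 activators and trafficking partners 12 were detected, with a median of 0.00. BSG, an inducer of MMPs, had -0.10, the convertase PCSK7 -0.11 and the urokinase receptor PLAUR 0.10. RHBDF2 had 0.17 on its brightest probe, and 0.49 (limma adjusted p = 0.189) and 0.02 on its dimmer probes. FURIN, a convertase that activates many of these proteases, was not detected.

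Among substrates shed from the cell surface, 12 of 18 were detected, with a median of 0.05. APP, cut by ADAM10, had -0.14 on its brightest probe (limma adjusted p = 0.131), where the groups did not overlap, and -0.08 and 0.04 on its other probes. The EGF receptor ligands shed by ADAM17 pointed both ways, with EREG at -0.20 (adjusted p = 0.175) and HBEGF at 0.19 (adjusted p = 0.177). Of 16 matrix substrates 5 were detected, with a median of -0.01. VCAN, the versican cut by ADAMTS9, read 10.65 to 10.85 in the knockdown and 10.60 to 10.73 in the control, with a log2 fold change of 0.08 (limma adjusted p = 0.415). The matrix glycoprotein TNC had 0.19 and the collagen chain COL4A2 -0.50, neither past the test. Of the astacins and ADAMTS-like proteins 3 of 13 were detected, with a median of -0.20: ADAMTSL3 at -0.49, ADAMTSL5 at -0.20 and BMP1 at 0.10. All 16 transcription factors known to act on MMP promoters were detected, with a median of 0.05. Among the AP-1 subunits, FOSB, FOS and JUN had the smallest p, with log2 fold changes of 0.15, 0.32 and 0.07 and limma adjusted p of 0.261, 0.366 and 0.4. The groups did not overlap for JUN, as for 1.56% of all probes, though its lowest knockdown and highest control arrays both read 10.87. JUNB had 0.18, JUND 0.02, FOSL2 0.01 and FOSL1 -0.06, none of them past the test. FOS was detected on 5 knockdown arrays and 1 control array.

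**Figure D5:**
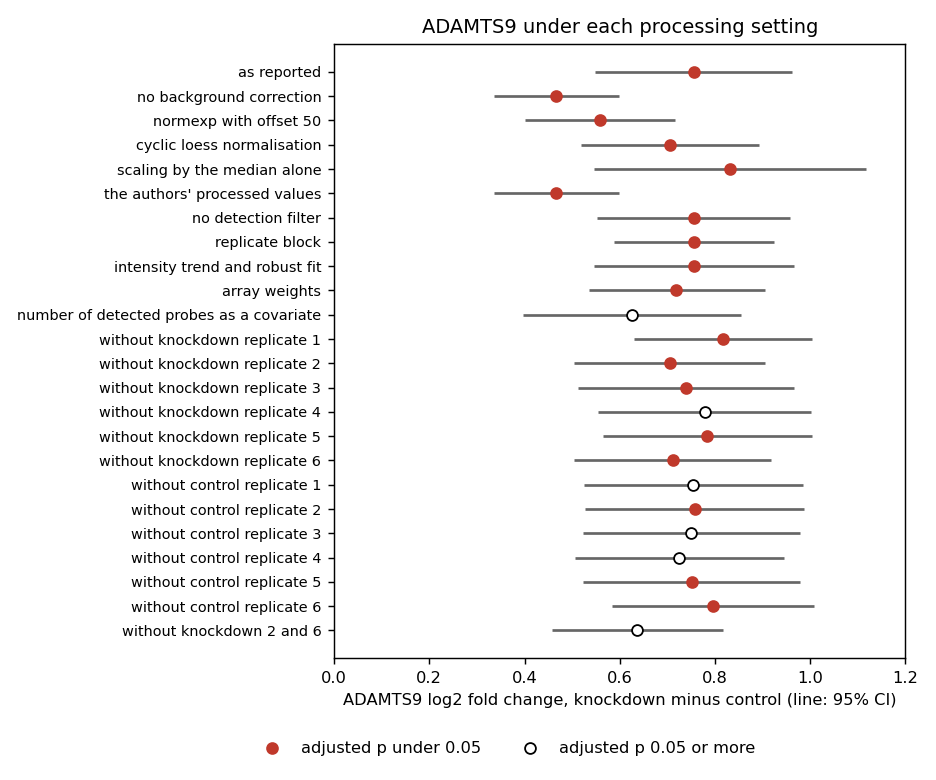
Points are the log2 fold change of ADAMTS9, knockdown minus control, with 95% confidence intervals, as reported and under each alternative; filled points have an adjusted p under 0.05. All lie between 0.47 and 0.83, and 6 are open.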

How the data were processed

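Total RNA of 12 PANC-1 samples (6 knockdown, 6 control, grouped by title) was labelled and hybridised to Illumina arrays, per the labels' protocols. Per the file headers, the deposited raw table gives 1 signal intensity (linear, 98.3 to 19220) and 1 detection p-value for every probe on every array. No source used here names the scanner software. The authors' processed table also holds intensity on a linear scale, whose values equal a quantile normalisation of the raw signal to within 4.81e-10 in log2. Limma is listed in the submitters' processing notes, with no role or version. Every column was assigned to a sample.

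Signals were corrected and normalised with neqc of limma 3.58.1 in R 4.3.3 (background inferred through the detection p-values, an offset of 16, quantile normalisation, log2). Adding that offset makes the fold changes of dim probes smaller. Probes with a detection p under 0.05 on at least 6 arrays were kept (16495). Each was tested with lmFit and eBayes on the group alone, with Benjamini-Hochberg adjustment over all of them and a threshold of 0.05; p-values are two-sided, and 924 assignments gave the exact permutation p. The smallest possible is 0.00216. A gene is represented by its brightest detected probe. Gene symbols were those of the platform annotation, and 0 member symbols changed on an update through RefSeq (GRCh38.p14). The fit was checked on simulated data with independent noise on every array, which does not cover differences in quality between arrays. The number of arrays limits precision, and no source used here gives slide or scan.

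Every member past the filter was named, and values by array were given for called members, for members whose groups do not overlap and for the 4 with the smallest p. In the other lists up to 3 genes with the smallest p were named, besides called ones. Members that a result turns on (VCAN, RECK, A2M, FURIN, the other AP-1 subunits) were added after their values were seen. So was RHBDF2, whose probes differed. Members, lists and alternatives were chosen with earlier results of these data known. Alternatives were other background corrections and normalisations, the authors' values, other detection filters, a replicate block, other variance models, array weights, a covariate and leaving out arrays. Figures were drawn with matplotlib 3.10.9.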

Additional observations from a re-analysis of the deposited data

Results flagged for a closer look

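In 3 of the 44 groups of 6 arrays looked at (each detected member probe and TIMP1 in each group, and the count of detected member probes), 1 array stood apart from the others by more than Dixon's 95% critical value, where chance gives about 1 in 20. ADAM22 read 5.74 on control 2, against 6.94 to 7.38 on the other control arrays. Without control 2 its log2 fold change was -0.30 in place of -0.06. ADAM8 read 8.61 on control 1, against 8.37 to 8.44 on the other control arrays. MMP10 read 7.16 on knockdown 5, against 6.59 to 6.74 on the other knockdown arrays.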

How the results depend on the processing

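Of 24 alternatives, not all distinct, 17 left the count of called member probes at 1 (ADAMTS9). It was 0 with the number of detected probes as a covariate, without knockdown 2 and 6, and with detection p under 0.01 on all 12 arrays, where 7 member probes remained and ADAMTS9 was not among them; leaving out single arrays gave 0 to 1. The log2 fold change of ADAMTS9 was 0.63 with the covariate and 0.64 without knockdown 2 and 6, neither past the threshold, and 0.71 to 0.82 without single arrays. The 50 calls over all probes became 32 with cyclic loess, 11 with scaling by the median alone, 11 with no detection filter, 28 with the replicate block, 90 with an intensity trend and robust fit, 0 with the covariate and 2 without knockdown 2 and 6, and 1 to 145 without single arrays. The cause was not tested. TIMP1, the 1 companion gene called under any alternative, passed at -0.19 with the stricter filter (adjusted p = 0.0449) and with the trend and robust fit (adjusted p = 0.0249), which made 1 companion call in each; leaving out single arrays gave 0. With detection p under 0.01 on at least 6 arrays 8 member genes were detected in place of 16. ADAM10 changed sign with scaling by the median alone, to 0.012, and the median of the members became 0.10 where that of all probes was 0.12. The other 19 member probes were called under none of the alternatives, and 12 of the 20 changed sign under at least 1. Whether replicate numbers pair the samples was not settled, because the correlations were set against no reference for unpaired arrays. Of 6 correlations of deviations 3 were over 0.1 (-0.11 to 0.19), and 2 of 6 knockdown arrays were closest to the control array of their own number. With the replicate block ADAMTS9 kept 0.76 (limma adjusted p = 0.0412) and 1 member call. Signal over background limits the 5 kept probes detected on 6 to 11 arrays. It also limits dim probes detected on all 12, such as ADAMTS9 and ADAMTS6, with detection p up to 0.0208 and 0.0429 in the control.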
